A study of Mus musculus with 18 samples.

Results

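The genes described here are 9 cytosolic sulfotransferases and 1 PAPS synthase of mouse liver: Sult1a1, Sult1b1, Sult1c2, Sult1d1, Sult1e1, Sult2a1, Sult3a1, Sult3a2, Sult5a1 and Papss2. They were chosen by name, from the array probes whose transcript is assigned to one of these symbols. Of the 10 genes, 8 had a probe (7 sulfotransferases and Papss2) out of 17721 genes tested, and no probe was assigned to Sult2a1 or Sult3a1, which were not analysed here. Liver RNA of female mice 6 weeks old was hybridised to 18 single-colour arrays, 1 for each sample, in 6 groups of 3. Nrf1 CKO mice carried the genotype Nrf1(dN/-) with Alb-Cre, a Cre recombinase driven by the albumin promoter of hepatocytes, and were set against Nrf1 Control mice, Nrf1(dN/+), with no Cre in their label. Both groups were of mixed strain. Nrf2 KO mice, Nrf2(-/-), were set against Nrf2 Control mice, Nrf2(+/+), both C57BL/6. Keap1 KD mice, Keap1(Kd/-), were set against Keap1 Control mice, Keap1(Kd/+), both of mixed strain, so the knockdown allele was present in these controls too. Nothing in the labels states that the replicates were separate animals, and the p-values therefore reflect only the spread among replicate samples, which could be technical.

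Sulfation attaches a sulfate group to drugs, steroids, bile acids, phenols, catecholamines and thyroid hormones, which makes most of them more water-soluble and usually ends their activity. Cytosolic sulfotransferases catalyse the transfer, and the donor in every case is PAPS (3′-phosphoadenosine 5′-phosphosulfate), which the PAPS synthases Papss1 and Papss2 make from sulfate and ATP. The antioxidant response element is a DNA motif bound by both NRF1 and NRF2, 2 factors of the same family, and KEAP1 keeps NRF2 low by directing its breakdown. The study set loss of each factor, and lowering of KEAP1, beside its own genetic control.

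Of the members that fell in Nrf1 CKO livers, the windows around the gene start that held a match to a searched motif are shown, because these members moved together in 1 line. The windows run from 250 bases before to 50 bases after an annotated start, 300 bases in all, from RefSeq on build GRCm38.p6, read 5′ to 3′ along the gene. Capitals mark matches, on either strand, to the motifs listed after them.
Sult3a2, chr10:33782066-33782365, minus strand: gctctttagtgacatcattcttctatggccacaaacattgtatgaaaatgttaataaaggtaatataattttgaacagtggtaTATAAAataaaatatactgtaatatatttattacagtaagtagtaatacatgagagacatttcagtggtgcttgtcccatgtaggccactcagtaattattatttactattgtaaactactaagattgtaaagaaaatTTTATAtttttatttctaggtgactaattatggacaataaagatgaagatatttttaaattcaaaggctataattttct
Sult1d1, chr5:87568957-87569256, minus strand: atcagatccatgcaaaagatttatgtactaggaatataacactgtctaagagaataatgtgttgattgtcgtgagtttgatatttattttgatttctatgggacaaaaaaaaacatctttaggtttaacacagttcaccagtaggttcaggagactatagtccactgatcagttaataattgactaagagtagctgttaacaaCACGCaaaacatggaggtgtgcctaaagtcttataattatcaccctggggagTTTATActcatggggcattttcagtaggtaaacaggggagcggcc
Papss2, second of its 2 starts, chr19:32619755-32620054, plus strand: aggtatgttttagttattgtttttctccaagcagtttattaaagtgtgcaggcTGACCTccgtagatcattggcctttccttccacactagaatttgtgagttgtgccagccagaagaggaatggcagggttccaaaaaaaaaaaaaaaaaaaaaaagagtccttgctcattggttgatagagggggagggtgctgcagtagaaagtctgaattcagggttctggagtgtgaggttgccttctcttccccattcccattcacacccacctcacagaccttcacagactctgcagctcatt

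The Sult3a2 window held TATAAA 167 bases before the start and its reverse complement 29 bases before it. The Sult1d1 window held the GCGTG core of the AHR motif, on the opposite strand, and TATAAA on the opposite strand just after the start. In Papss2 the capitals mark the nuclear receptor motif AGGTCA on the opposite strand. The Sult1a1 window and the first Papss2 window held none of the motifs searched. Across all 11 windows of the 9 members that had one, the antioxidant response element core TGACNNNGC was found in 0, and in 12.4% of all 32851 promoter windows. TATAAA was found for Sult1d1 and Sult3a2, and in 13.6% of all windows. AGGTCA was found for Papss2, Sult1b1 and Sult1e1, and in 16.3% of all windows. GCGTG was found for Sult1b1 and Sult1d1 (32.4% of all windows), the HNF4A motif CAAAGTCCA for Sult1b1 (0.475%) and the C/EBP motif TTGCNNAA for Sult1c2 (10.8%). Each motif was searched on both strands, and matches of different motifs may overlap. A match describes the letters in this window and is not evidence of binding. Several members lie side by side: Sult1b1, Sult1d1 and Sult1e1 are consecutive genes on chromosome 5, and Sult3a2 is next to Sult3a1 on chromosome 10.

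Signals are given as log2 of the processed signal relative to the 75th percentile of the same array, so that 0 is the level of that percentile. Each probe binds with its own efficiency, so levels are compared between groups and not between genes. Changes are mutant minus control, tested with limma across all genes and called at a Benjamini-Hochberg adjusted p under 0.05. The targeted genes went with their labels. Nfe2l1 (NRF1) was not well above background on any Nrf1 CKO array and was at least 469-fold lower than in the controls (adjusted p = 5.88e-15). Nfe2l2 (NRF2) averaged -4.88 in Nrf2 KO livers, where 1 of 3 arrays was above background, and 3.32 in Nrf2 Control livers (adjusted p = 4.46e-07). Keap1 averaged 1.80 in Keap1 KD livers and 4.19 in Keap1 Control livers (adjusted p = 0.00124). Each array had between 50% and 65.0% of its spots well above background, and pairs of arrays of a group correlated at 0.973 to 0.991. All 6 tested hepatocyte markers were above background on every array of the Nrf1 groups, as the liver label says. Of the 8 measured members, 7 were above background on all 18 arrays and Sult3a2 on 10 of them.

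**Figure D1:**
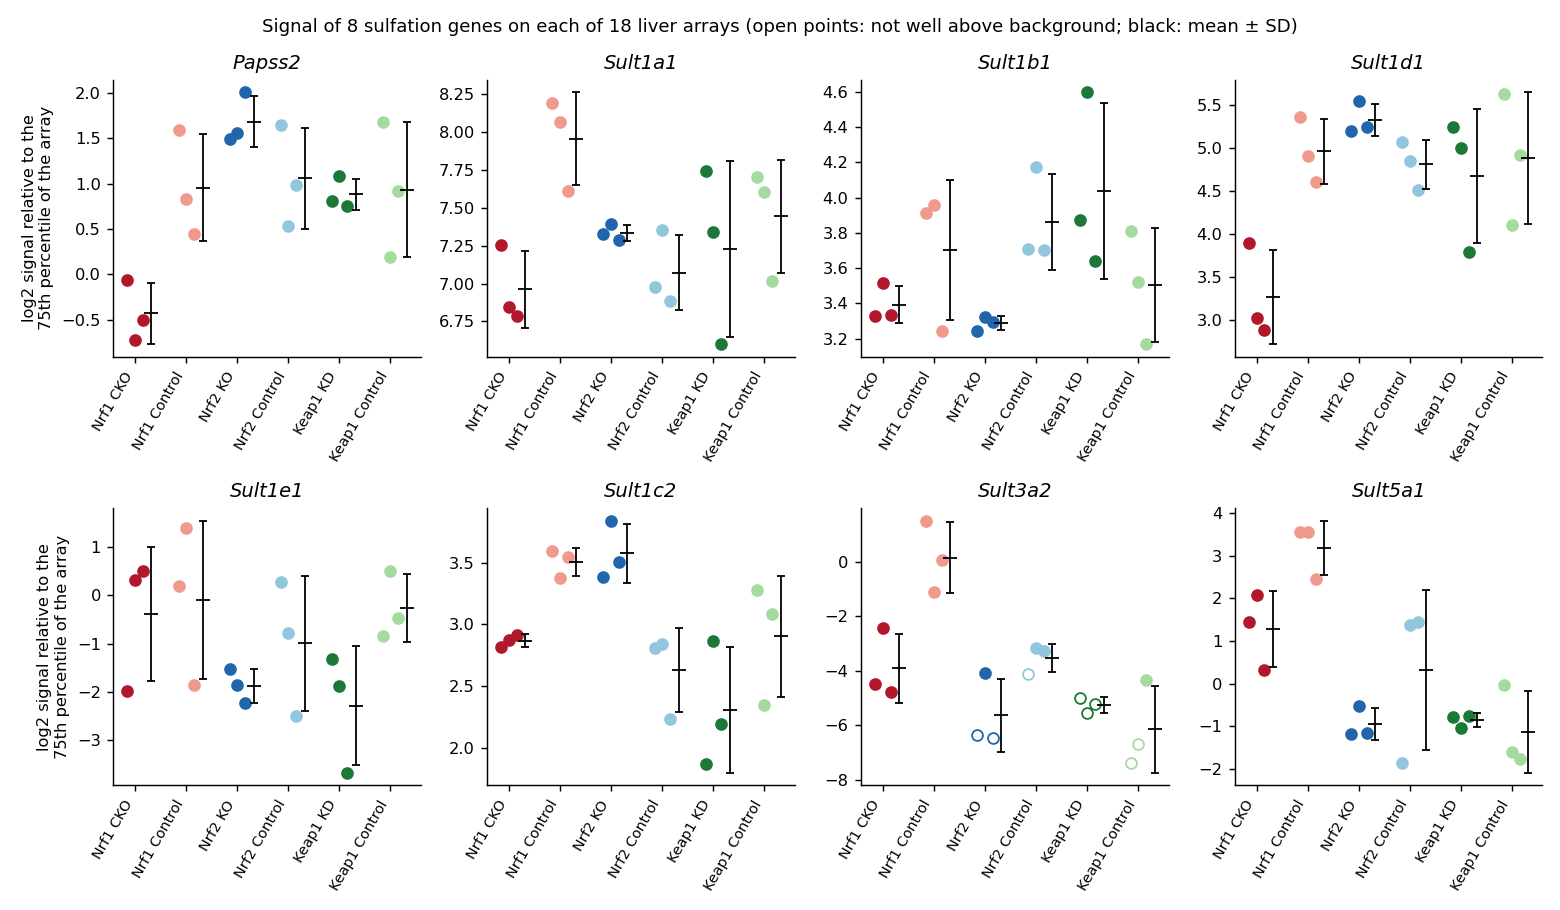
Log2 signal relative to the 75th percentile of the array (vertical axis, a separate scale in each panel) of the 8 measured genes in 6 groups of 3 arrays (horizontal axis); open points were not well above background, and black marks are the mean ± SD. For Papss2, Sult1a1, Sult1c2, Sult1d1, Sult3a2 and Sult5a1 every Nrf1 CKO point lies under every Nrf1 Control point.

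In Nrf1 CKO livers 4 of the 8 members fell, 0 rose and 4 were not called, against 10.9% of all tested genes called lower and 7.99% called higher. Those that fell were Sult3a2 (16.8-fold), Sult1d1 (3.25-fold), Papss2 (2.61-fold) and Sult1a1 (1.99-fold). The Sult3a2 fold rests in part on Nrf1 CKO signals near background, and another background correction (normexp) gave a log2 change of -2.19 for it. All 8 changes, taken after scaling, were below 0, with a median of -1.19 beside -0.09 over all genes. After scaling, the groups did not overlap for 6 members, all lower in Nrf1 CKO livers, while 28.1% of all genes were lower without overlap. In bulk liver, fewer cells of a type and less RNA per cell cannot be told apart.

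Papss2, the PAPS synthase that supplies much of the sulfate donor in liver, had log2 signals of -0.06, -0.72 and -0.50 in Nrf1 CKO livers, against 1.59, 0.83 and 0.44 in Nrf1 Control livers. Every mutant array was below every control array. The difference of -1.39 (SE 0.37) passed the test (limma adjusted p = 0.0192). In the other lines Papss2 averaged 1.68 ± 0.28 in Nrf2 KO livers and 1.06 ± 0.56 in Nrf2 Control livers, and 0.88 ± 0.17 in Keap1 KD livers and 0.93 ± 0.74 in Keap1 Control livers (SD, n = 3 each). Those groups overlapped, and neither change was called (0.62, adjusted p = 0.670 with limma, and -0.05, adjusted p = 0.971). Nrf1 CKO livers had the lowest Papss2 signals of the 6 groups, below every array of the others.

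Sult1a1, the main phenol sulfotransferase of liver, which sulfates simple phenols and many phenolic drugs, had log2 signals of 7.25, 6.85 and 6.78 in Nrf1 CKO livers, against 8.19, 8.06 and 7.61 in Nrf1 Control livers. The groups did not overlap, and the difference was -0.99 (SE 0.27, limma adjusted p = 0.0203). Nrf1 CKO had the lowest mean of the 6 groups and Nrf1 Control the highest. Sult1a1 averaged 7.34 ± 0.05 in Nrf2 KO livers and 7.07 ± 0.25 in Nrf2 Control livers (SD, n = 3 each), a change of 0.26 (limma adjusted p = 0.847). The Nrf1 CKO arrays overlapped those of Nrf2 Control, Keap1 KD and Keap1 Control. It averaged 7.23 ± 0.58 in Keap1 KD livers and 7.44 ± 0.37 in Keap1 Control livers (SD, n = 3 each), a change of -0.22 (limma adjusted p = 0.782).

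Sult1d1, known in mice to sulfate catecholamines such as dopamine and other phenols, had log2 signals of 3.89, 3.02 and 2.88 in Nrf1 CKO livers, against 5.36, 4.91 and 4.61 in Nrf1 Control livers. Of the arrays of all other groups, only Keap1 KD 3, at 3.79, was below the highest Nrf1 CKO array. The difference of -1.70 (SE 0.41) passed the test (limma adjusted p = 0.0120). In Nrf2 KO livers Sult1d1 was at 5.19, 5.54 and 5.25, against 5.07, 4.85 and 4.51 in Nrf2 Control livers. These groups did not overlap, yet the difference of 0.52 was not called (limma adjusted p = 0.781). In the Keap1 line it averaged 4.68 ± 0.78 in Keap1 KD livers and 4.88 ± 0.77 in Keap1 Control livers (SD, n = 3 each), a change of -0.21 (limma adjusted p = 0.876).

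Sult1b1, which sulfates thyroid hormones and small phenols, lies beside Sult1d1 but was not called in any line. By its brighter probe it averaged 3.39 ± 0.11 in Nrf1 CKO livers and 3.70 ± 0.40 in Nrf1 Control livers (SD, n = 3 each), a change of -0.31 (SE 0.25, limma adjusted p = 0.402). In Nrf2 KO livers it was at 3.24, 3.33 and 3.29, against 3.71, 4.17 and 3.70 in Nrf2 Control livers. These groups did not overlap, with the mutant lower by 0.57 on the log2 scale (limma adjusted p = 0.536). Keap1 KD livers averaged 4.04 ± 0.50 and Keap1 Control livers 3.50 ± 0.32 (SD, n = 3 each), a change of 0.54 (limma adjusted p = 0.296). Its second probe gave changes of -0.71 in Nrf1 CKO, -0.74 in Nrf2 KO and 0.46 in Keap1 KD livers, the same directions as the first, and was called in none.

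Sult1e1, the estrogen sulfotransferase, varied widely within groups. It was at -1.98, 0.32 and 0.50 in Nrf1 CKO livers, against 0.19, 1.39 and -1.86 in Nrf1 Control livers, a difference of -0.29 with an SE of 0.88 (limma adjusted p = 0.852). In each of these groups 1 array was more than 2 log2 units below the other two. In Keap1 KD livers it was at -1.31, -1.88 and -3.66, against -0.84, 0.51 and -0.47 in Keap1 Control livers. Here the groups did not overlap, and the difference of -2.02 (SE 0.88) was not called (limma adjusted p = 0.253). Nrf2 KO livers averaged -1.87 ± 0.35 and Nrf2 Control livers -0.99 ± 1.40 (SD, n = 3 each), with overlapping arrays (limma adjusted p = 0.843).

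Sult1c2, another member of the phenol sulfotransferase family, had closely spaced arrays in the Nrf1 line. It was at 2.82, 2.87 and 2.92 in Nrf1 CKO livers, against 3.59, 3.38 and 3.55 in Nrf1 Control livers, with no overlap. The change of -0.64 (SE 0.27) did not pass the test (limma adjusted p = 0.104). Before scaling the groups overlapped, with processed signals of 2150.8, 2551.7 and 3043.3 in Nrf1 CKO livers, against 2338.1, 2192.5 and 2937.8. In Nrf2 KO livers the direction was the opposite: 3.38, 3.84 and 3.50, against 2.81, 2.84 and 2.24 in Nrf2 Control livers. The difference of 0.95 (SE 0.27) did not pass either (limma adjusted p = 0.297), although the arrays did not overlap. Keap1 KD livers averaged 2.31 ± 0.51 and Keap1 Control livers 2.90 ± 0.49 (SD, n = 3 each), a change of -0.59 (limma adjusted p = 0.269).

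Sult3a2, of the family that includes the amine sulfotransferase Sult3a1, had log2 signals of -4.50, -2.44 and -4.76 in Nrf1 CKO livers, against 1.52, -1.11 and 0.09 in Nrf1 Control livers. All 6 arrays were above background and the groups did not overlap. The change of -4.07 (SE 0.85, limma adjusted p = 0.00635) was the third lowest of all 17721 genes. Background correction with normexp gave -2.19 (adjusted p = 0.00109), and leaving out 1 array gave -3.39 (without Nrf1 Control 1), -4.71 (without Nrf1 Control 2) or -4.80 (without Nrf1 CKO 2), each still called by limma. With slide as a fixed block the change was -3.99 and was not called (limma adjusted p = 0.182). The Nrf1 Control arrays stood above every array of the 5 other groups. In Nrf2 KO livers Sult3a2 averaged -5.64 ± 1.35, with 1 of 3 arrays above background, and in Nrf2 Control livers -3.53 ± 0.53 with 2 of 3 (SD, n = 3 each). That difference of -2.11 was not called (limma adjusted p = 0.491), and 3 of the 6 signals behind it are not above background. Keap1 KD livers had 0 of 3 arrays above background and Keap1 Control livers 1 of 3, so no fold is given. Whether this probe also binds Sult3a1 RNA was not tested.

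Sult5a1, a sulfotransferase with no well-established substrate, was likewise highest in Nrf1 Control livers. It was at 1.44, 2.08 and 0.33 in Nrf1 CKO livers, against 3.55, 3.56 and 2.45 in Nrf1 Control livers. The groups did not overlap, but the difference of -1.91 (SE 0.72) did not pass the test (limma adjusted p = 0.0767). All 3 Nrf1 Control arrays lay above every array of the 5 other groups, as for Sult3a2. Nrf2 KO livers averaged -0.95 ± 0.38 and Nrf2 Control livers 0.32 ± 1.88, and Keap1 KD livers -0.86 ± 0.16 and Keap1 Control livers -1.13 ± 0.96 (SD, n = 3 each). Neither change was called (-1.27, adjusted p = 0.657, and 0.27, adjusted p = 0.918, with limma). The Nrf2 line is of another strain than the other two, so strain and line cannot be told apart in levels set against it.

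**Figure D2:**
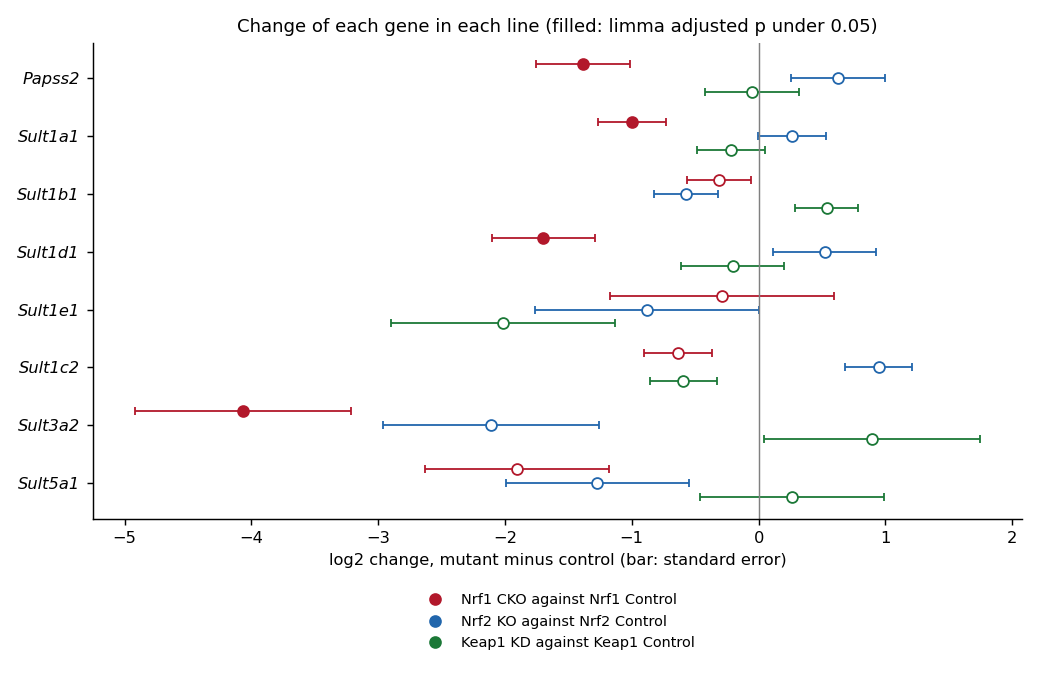
Log2 change, mutant minus control (horizontal axis), of the 8 genes (vertical axis) in the Nrf1, Nrf2 and Keap1 lines; bars are standard errors and filled points passed limma's adjusted p of 0.05. The 4 filled points, Papss2, Sult1a1, Sult1d1 and Sult3a2, are all in the Nrf1 line and between -0.99 and -4.07.

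In Nrf2 KO livers 0 of 8 members were called by limma, while 0.0621% of all genes were. At an unadjusted p under 0.05 there were 3 members (8.89% of all genes). Of the changes, 4 were above 0 and 4 below, with a median of -0.16 beside 0.01 over all genes. Sult1c2 and Sult1d1 were higher without overlap (9.81% of all genes were) and Sult1b1 was lower without overlap (11% of all genes). In Keap1 KD livers 0 of 8 were called by limma, with 5.52% of all genes called, and 3 had an unadjusted p under 0.05 (16.8% of all genes). There 3 changes were above 0 and 5 below, with a median of -0.13 beside 0.0009, and only Sult1e1 was without overlap, lower (11.4% of all genes were). In Nrf1 CKO livers 6 of 8 members had an unadjusted p under 0.05 (34.7% of all genes).

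The differences between the lines' effects were tested in the same fit. The Nrf1 CKO effect was below the Nrf2 KO effect for 3 of 8 members, with 2.57% of all genes called in that direction. These were Papss2 (difference -2.01, SE 0.52, limma adjusted p = 0.0377), Sult1c2 (-1.58, SE 0.38, adjusted p = 0.0277) and Sult1d1 (-2.22, SE 0.58, adjusted p = 0.0375). For each of them the Nrf1 CKO change was below 0 and the Nrf2 KO change above 0. Sult1a1 had the same pair of signs, but its difference of -1.26 was not called (limma adjusted p = 0.0621). The Nrf1 CKO effect was below the Keap1 KD effect for 1 of 8, Sult3a2 (-4.96, SE 1.20, limma adjusted p = 0.0285), with 3.36% of all genes called in that direction. Only 1 of the 6 Keap1-line arrays was above background for Sult3a2, so this fitted difference is no measure of size, and with only probes above background on all arrays it was not tested. The Nrf2 KO effect was above the Keap1 KD effect for 1 of 8, Sult1c2 (1.54, SE 0.38, limma adjusted p = 0.0401), with 2.09% of all genes called in that direction. Each of these calls was lost with slide or scan date as a fixed block and without any filter on background. For the Nrf2 line neither block gives a comparison within a slide or scan day. The Nrf2 Control arrays share theirs with Keap1 Control 1 only, of mixed strain, so the blocked Nrf2 effect rests on that array.

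The Nrf1 arrays were hybridised on 2 slides, which the groups share unequally. All 3 Nrf1 CKO arrays and Nrf1 Control 3 were on slide 2, and Nrf1 Control 1 and 2 were on slide 1. Within slide 2, 3 mutant arrays against 1 control array, the difference was -3.99 for Sult3a2, -1.35 for Sult1d1, -0.87 for Papss2 and -0.65 for Sult1a1. These kept their direction, but with slide as a fixed block none of the 4 was called (limma adjusted p = 0.182, 0.264, 0.348 and 0.293 in that order), and of all genes 65 were called in place of 3348. With slide as a random block, or scan date as a fixed block, all 4 were called, and 3478 and 3094 of all genes were. All 6 Nrf1 arrays were scanned on 1 day. For Sult1c2 the within-slide difference was -0.68 and for Sult5a1 -1.17. Sult1b1 (0.15) and Sult1e1 (1.48) turned positive. For the 4 called members, Nrf1 Control 3 lay below Nrf1 Control 1 in each, and above all the Nrf1 CKO arrays of its slide. The Nrf1 CKO arrays also had more spots well above background, 57.5% to 60.1%, than the Nrf1 Control arrays, 52.3% to 54.7%. Log2 of the 75th percentile, which the scaling subtracts, was 8.255 to 8.655 on Nrf1 CKO arrays, against 7.598 to 7.975 on Nrf1 Control arrays. Before scaling, the 4 called members were still lower on every Nrf1 CKO array than on every Nrf1 Control array, while Sult1c2 and Sult5a1 overlapped. The scaling widened these gaps, since it subtracted more from every Nrf1 CKO array. Processed signals of Sult1a1 were 46579, 40052 and 44421 in Nrf1 CKO livers, against 56756, 56567 and 49088. Sult1b1, lower after scaling, was not lower before it, at 3075.6, 3982 and 4062.1 against 2918.2, 3279.2 and 2386. The part of slide and of signal in these results was not tested further. No slide holds both Nrf2 KO and Nrf2 Control arrays, and no scan day does.

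**Figure D3:**
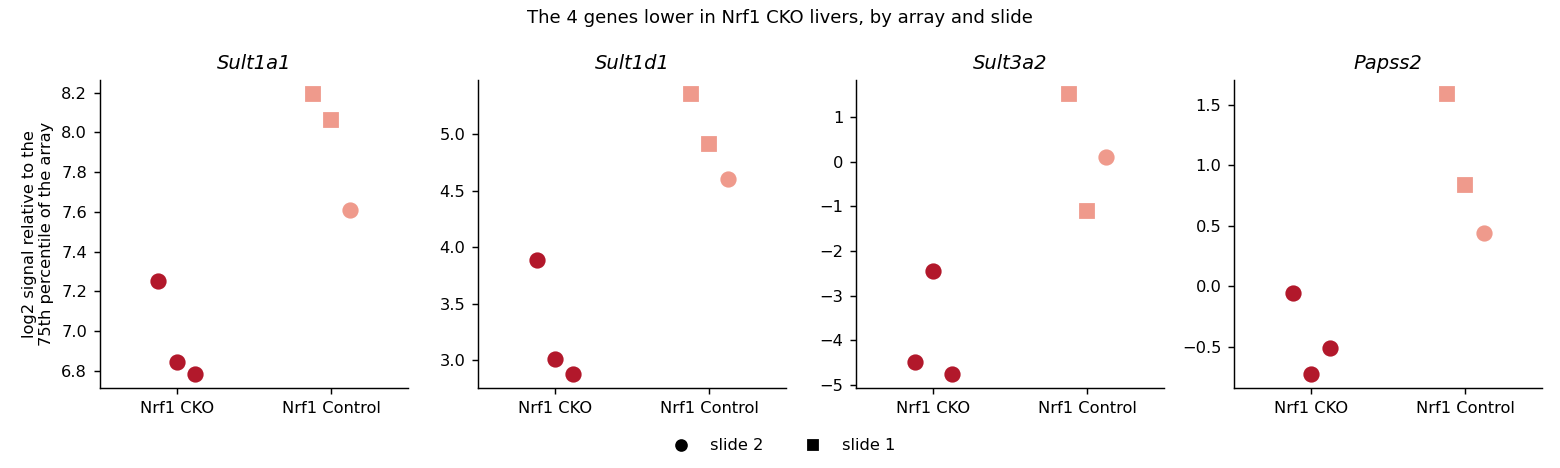
Log2 signal relative to the 75th percentile of the array (vertical axis, a separate scale in each panel) of the 4 called genes on the 3 Nrf1 CKO and 3 Nrf1 Control arrays; circles are slide 2 and squares slide 1. The control on slide 2 lies above the 3 mutant arrays of that slide in each panel, by -0.65 (Sult1a1), -1.35 (Sult1d1), -3.99 (Sult3a2) and -0.87 (Papss2) as mutant mean minus control.

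Leaving out 1 array also moved the calls. Without Nrf1 Control 1, Nrf1 CKO 2 or Nrf1 CKO 3 only Sult3a2 of the 8 members was called, and 1216, 1181 and 939 of all genes were. Sult1a1 was not called after quantile normalization (-0.47, limma adjusted p = 0.0881), after normexp (-0.49, adjusted p = 0.0579) or without Nrf1 Control 2 (adjusted p = 0.0603).

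Some markers of other liver cells moved in the same arrays, in which limma called 7.99% of all genes higher and 10.9% lower. At an unadjusted p under 0.05 there were 34.7% of all genes. Of 6 tested stellate cell and fibroblast markers 5 rose in Nrf1 CKO livers, among them the collagen gene Col1a1 (2.21, SE 0.48, limma adjusted p = 0.00717). Log2 of the summed signal of all 6 was 6.601 to 7.096, against 6.074 to 6.513 in Nrf1 Control livers. Most of that sum was Dcn, the marker that was not called (0.42, limma adjusted p = 0.126). Of 6 tested hepatocyte markers limma called 0, 3 had an unadjusted p under 0.05, with a median change of -0.40, and log2 of their summed signal was 11.003 to 11.432, against 11.579 to 11.693. Of 5 Kupffer cell and macrophage markers 1 rose (Marco), of 5 sinusoidal endothelial markers 1 fell (Lyve1), and of 2 tested pancreatic acinar markers 1 rose (Cela1, above background on 3 Nrf1 CKO arrays and 1 Nrf1 Control array). Of 4 cholangiocyte, 4 lymphocyte and 2 erythroid markers 0 were called by limma, and 1, a lymphocyte marker, had an unadjusted p under 0.05. No tested marker was below background on every array of either group. The part of these shifts in the results for the sulfotransferases was not tested.

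Other genes of sulfation were read from lists written by function, and their counts in Nrf1 CKO livers stand beside 7.99% of all genes called higher, 10.9% called lower and a median change of -0.09. Of the other cytosolic sulfotransferases 12 were listed and 5 tested, and in Nrf1 CKO livers 1 fell and 0 rose, with a median of -0.74. This was Sult2a4, of the hydroxysteroid sulfotransferase family, at -0.21, 0.62 and -0.42 in Nrf1 CKO livers, against 2.48, 1.58 and 0.78 in Nrf1 Control livers. The groups did not overlap (change -1.62, SE 0.47, limma adjusted p = 0.0288). Another member of that family, Sult2a2, changed by -1.58 and was not called (limma adjusted p = 0.0745). Sult2a4 and Sult2a2 are closely related genes, and whether their probes tell them apart was not tested.

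Among 14 tested genes that supply sulfate and PAPS, 2 rose and 2 fell in Nrf1 CKO livers, with a median of -0.32. Papss1, the other PAPS synthase, was at 0.65, 0.73 and 0.74 in Nrf1 CKO livers, against -0.04, -0.24 and 0.30 in Nrf1 Control livers. It rose (0.70, SE 0.19, limma adjusted p = 0.0208) in the same livers in which Papss2 fell. Slc26a2, a sulfate transporter, also rose (0.76, limma adjusted p = 0.0106). Suox, the sulfite oxidase that makes sulfate in mitochondria, fell by 1.12 on the log2 scale (limma adjusted p = 0.00741), and Sqor, which oxidises hydrogen sulfide, fell by 0.78 (limma adjusted p = 0.0268). In Keap1 KD livers 1 of these 14 was called, Ethe1, a persulfide dioxygenase of the same sulfide oxidation pathway, which was at 4.71, 4.72 and 3.74 in Keap1 KD livers, against 2.93, 3.83 and 2.77 in Keap1 Control livers (1.22, SE 0.32, limma adjusted p = 0.0360). Its groups overlapped.

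The sulfotransferases of the Golgi, which act on glycans, lipids and tyrosines, and the sulfatases, which remove sulfate, moved in both directions. In Nrf1 CKO livers 4 of 19 Golgi sulfotransferases rose and 1 fell (7.99% and 10.9% of all genes), with a median of 0.11. The cerebroside sulfotransferase Gal3st1 was at -1.91, -2.01 and -1.18 in Nrf1 CKO livers, against -3.75, -3.20 and -3.85 in Nrf1 Control livers (1.90, SE 0.42, limma adjusted p = 0.00789). Chst12 (1.10) and Hs2st1 (0.997), which sulfate chondroitin and heparan chains, rose, and the tyrosine sulfotransferase Tpst1 fell by 0.78. Of 12 sulfatases 3 rose and 2 fell, with a median of -0.03. Arsa, the lysosomal arylsulfatase that acts on sulfatide, the product of Gal3st1, rose as well (1.26, SE 0.26, limma adjusted p = 0.00604), as did the lysosomal enzymes Galns (0.88) and Sgsh (0.80), while Ids fell by 0.66. Limma called 0 genes of either list in Nrf2 KO livers or in Keap1 KD livers. Over all 5 lists, 63 tested genes, limma called 18 in Nrf1 CKO livers, 0 in Nrf2 KO livers and 1 in Keap1 KD livers, against 18.9%, 0.0621% and 5.52% of all genes. At an unadjusted p under 0.05 there were 32, 6 and 7 of the 63, against 34.7%, 8.89% and 16.8% of all genes. The list calls in Nrf1 CKO livers come from the same 2 slides as those of the members and were not repeated with slide as a block.

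Of 13 tested transcription factors known to act on liver sulfotransferase genes, 3 fell and 0 rose in Nrf1 CKO livers (10.9% and 7.99% of all genes), with a median of -0.55 beside -0.09 over all genes. These were Nr1i2, encoding the xenobiotic receptor PXR (-1.10, limma adjusted p = 0.0338), Nr1i3, encoding the related receptor CAR (-0.91, adjusted p = 0.00617), and Cebpa (-0.84, adjusted p = 0.00776), a factor of hepatocyte differentiation. Nr1i3 was at 3.57, 3.16 and 2.96 in Nrf1 CKO livers, against 4.33, 4.10 and 3.98 in Nrf1 Control livers, without overlap. In Nrf2 KO and in Keap1 KD livers limma called 0 of the 13, with 1 at an unadjusted p under 0.05 in each line.

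**Figure D4:**
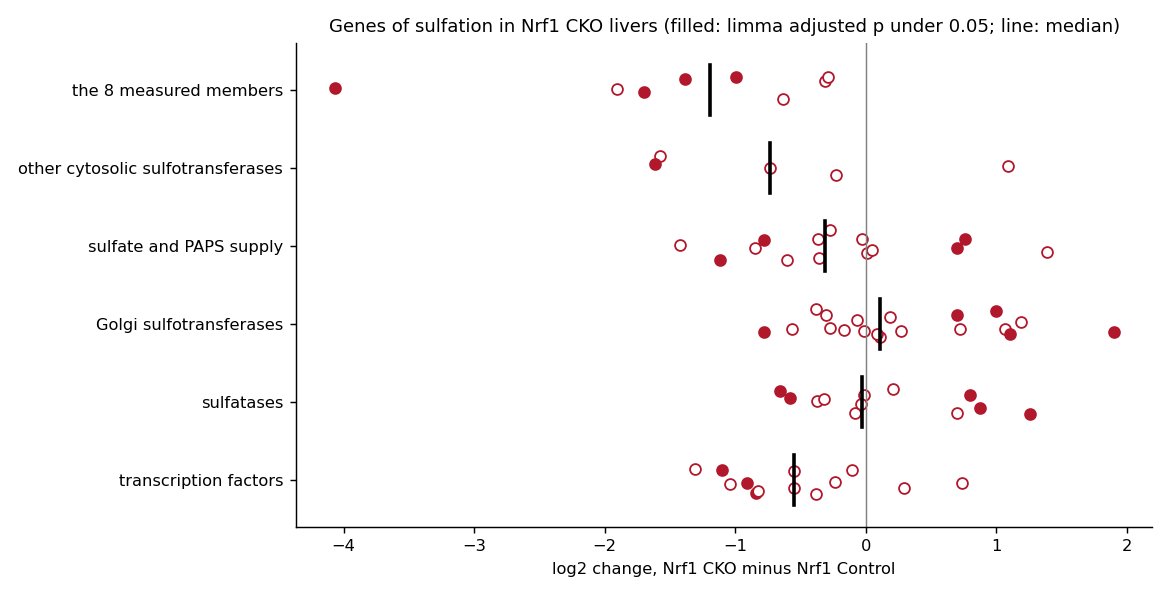
Log2 change in Nrf1 CKO against Nrf1 Control livers (horizontal axis) of each tested gene of the 6 groups named on the vertical axis; filled points passed limma's adjusted p of 0.05, black lines are medians and vertical scatter within a row has no meaning. Medians run from -1.19 for the 8 measured members to 0.11 for the Golgi sulfotransferases.

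For each called member, the 3 genes with the most similar signals over all 18 arrays were found by Pearson's r, as a description, since the arrays share groups, slides and scaling. Papss2 was closest to Dmac2 (0.962), Slc9a3r1 (0.914) and Tmub1 (0.904). Sult1d1 was closest to Hpd (0.951) and Gcat (0.948), both of amino acid breakdown, and the glucuronosyltransferase gene Ugt2a3 (0.946). Sult1a1 was closest to Lgr4 (0.892), Uroc1 (0.885) and Arl15 (0.879). Sult3a2, part of whose values are below background, was closest to Zbtb1 (0.900), Nufip2 (0.892) and Wac (0.881).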

How the data were processed

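Per the labels, total liver RNA was extracted with Isogen, and Cy3 label was added by the Quick Amp kit. Per the file headers, images were read with Agilent Feature Extraction 10.7.3.1, and the deposited processed signal intensities were background-subtracted and not normalized between arrays. The series table deposited by the authors held the same intensities at 810324 of 810324 entries. The deposited flags for background, saturation and outliers are from the same software, per the file headers.

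Control spots (1639 of 45018) and outlier spots were left out, the log2 signals of a probe's spots were averaged, and log2 of the array's 75th percentile was subtracted. Transcript names were matched to RefSeq, which gave a symbol to 26718 of 41174 probes. The test covered the 23554 probes above background (at least 50% of their spots) throughout at least 1 group, and the brightest probe stood for a gene (17721 genes). A gene below background on all arrays of a group has only a bound there: the control mean against, per array, the higher of its own signal and the lowest signal above background. Limma 3.58.1, run in R 4.3.3, estimated 6 group means from 18 arrays and left 12 residual degrees of freedom. The number of arrays limits the precision. On simulated data for Nrf1 CKO against Nrf1 Control (17670 genes), 55 of 100 genes changed by 1 log2 unit and 89 of 100 changed by 2 were recovered, with 5 false calls. The simulated noise was independent between arrays, with no effect of slide, scan day or scaling. Far fewer genes were changed than the 3348 called in the real comparison, and the adjusted p depends on that share. The simulated counts therefore give no error rate or recovery rate for the calls in the real data.

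The members and lists were chosen with earlier results of these data known. Every member was named, with its probes, and of each pathway list at most 4 called genes with the largest change per comparison. Arrays with the same replicate number correlated in their deviations from group means at -0.359 to 0.147, so the numbers were not taken as pairs. Alternatives were 4 scalings or sources of the values (quantile, array median, normexp with an offset of 50 then quantile, the authors' series table), other filters and probe rules, a trend, array weights, blocks of replicate number, slide and scan date, the arrays of the compared lines alone, and each array left out.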

Additional observations from a re-analysis of the deposited data

Results flagged for a closer look

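The following differences between the lines' effects passed limma's test and are listed for a closer look. The Nrf1 CKO effect minus the Nrf2 KO effect was -1.58 for Sult1c2, -2.22 for Sult1d1 and -2.01 for Papss2. The Nrf1 CKO effect minus the Keap1 KD effect was -4.96 for Sult3a2, a fitted value that gives no measure of size, since this gene was above background on 0 of 3 Keap1 KD arrays and 1 of 3 Keap1 Control arrays. The Nrf2 KO effect minus the Keap1 KD effect was 1.54 for Sult1c2. Each line had its own slides in part, and none of these was called with slide as a fixed block. In that fit the Nrf2 KO effect rests on Keap1 Control 1, the only link to the Nrf2 Control arrays.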

How the results depend on the processing

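The 4 calls among the members in Nrf1 CKO livers became 0 with slide as a fixed block, where only 1 control shares a slide with the mutants, and 1 to 4 when 1 array was left out. With the replicate block there were 4. In the counts below, slide is the fixed block. In Nrf2 KO and Keap1 KD livers the count was 0 under every alternative run. The 3 called differences between the Nrf1 CKO and Nrf2 KO effects became 5 with normexp, 0 without a filter on background, 0 with the slide block, 0 with the scan date block, and 0 to 4 when 1 array was left out. The 1 difference between the Nrf1 CKO and Keap1 KD effects became 3 with array median scaling, 0 without a filter, 0 with only probes above background on all arrays (7 members tested, without Sult3a2), 0 with slide, 0 with scan date, 0 with only the arrays of the compared lines, and 0 to 3 when 1 array was left out. The 1 difference between the Nrf2 KO and Keap1 KD effects became 0 with array median scaling, without a filter, with the replicate block, with slide, with scan day and with only the arrays of the compared lines, and 0 to 4 when 1 array was left out. Directions turned for changes that were not called. With slide as a fixed block, Sult1b1 (0.15) and Sult1e1 (1.48) in Nrf1 CKO, Sult5a1 in Nrf2 KO (0.62) and Papss2 in Keap1 KD (0.0018) were positive. With scan date, Sult5a1 in Nrf2 KO was 0.65 and Papss2 in Keap1 KD 0.19. Both Nrf2 KO values rest on Keap1 Control 1 as the only link to the Nrf2 Control arrays. With array median scaling, which moved the median change of all genes by 0.29 in Keap1 KD and -0.11 in Nrf1 CKO, Sult1a1 (0.0775), Sult1d1 (0.0874) and Papss2 (0.24) in Keap1 KD turned. When 1 array was left out, Sult1e1 in Nrf1 CKO ran between -1.17 and 0.51. In Keap1 KD, Sult1a1 then ran between -0.47 and 0.10, Sult1d1 between -0.60 and 0.24, Papss2 between -0.42 and 0.32, and Sult5a1 between -0.048 and 0.82. Sult1c2 in Nrf1 CKO passed with array weights (limma adjusted p = 0.0199) and with the Nrf1 arrays alone (0.0340), and Sult5a1 with normexp (0.0468) and weights (0.0258). Of all genes called in Nrf1 CKO, 42.3% were higher, and 55.1% after quantile normalization, 53.8% after normexp and 35.3% with array median scaling. In Keap1 KD these shares were 17.2%, and 27.4%, 27.6% and 48.8% in the same order. The cause of these changes, with slide as a block or otherwise, was not tested. Sult3a2 was above background on 10 of 18 arrays, which limits its values in the Nrf2 and Keap1 lines.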
